A study of Mus musculus with 2 samples.

Results

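The cells described here are tuft-like thymic epithelial cells that carry genes of the taste signalling pathway, led by Gnat3. They were chosen by measured values, as kept cells with a UMI (1 counted RNA molecule) in at least 2 of the 5 genes Rgs21, Gnat3, Ovol3, Gnb3 and Tas2r105, called the rule genes below. The rule found 420 members among 7621 kept cells, 141 of 3584 in the library labelled KO and 279 of 4037 in the library labelled WT. The study measured droplet single-cell transcriptomes of live EPCAM+ cells sorted from enzymatically dissociated mouse thymus after a Percoll gradient. It holds 1 library titled Foxp1 KO, named KO (Cre+), and 1 titled Foxp1 WT, named WT (Cre-). The genotype field reads KO for both, so titles and library names separate the groups, and the Cre driver, the deleted part of Foxp1, the animals pooled, their age and their sex are not given in the labels used here. Each label stands for 1 library, so differences have no replicate check and carry no test, and every interval below covers counting error only, at 95%.

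Tuft cells are chemosensory epithelial cells of the gut, airway and other organs, and depend on the transcription factor Pou2f3. Taste cells and tuft cells share a cascade in which a receptor of the Tas1r or Tas2r family activates a G protein with the alpha subunit gustducin (Gnat3). The beta and gamma subunits (Gnb3, Gng13) then act through the phospholipase Plcb2, the calcium channel Itpr3 and the cation channel Trpm5. In the thymus medulla, epithelial cells that take on the programme of a peripheral cell type are called mimetic cells, and tuft-like cells are one of these types.

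Gnat3, Gnb3, Rgs21 (a regulator of G protein signalling known from taste cells), Ovol3 (a zinc finger factor of the Ovo family) and Tas2r105 (a bitter receptor that responds to cycloheximide) are spread over the genome, with Gnb3 and Tas2r105 both on chromosome 6. On GRCm38 the annotation places Rgs21 at chr1:144516648-144567667, Gnat3 at chr5:17962549-18019834, Ovol3 at chr7:30233439-30235725, Gnb3 at chr6:124834240-124840275 and Tas2r105 at chr6:131686532-131687495. None of the 5 overlaps another annotated gene. Because Pou2f3 belongs to the POU family, whose members bind the octamer ATGCAAAT, the windows from 250 bases before to 50 bases after the annotated starts (RefSeq, build GRCm38.p6) were searched for the octamer on both strands. The search covered 4 of the 5 rule genes and 30 of the 34 Tas2r genes beside Tas2r105. The octamer was present in 570 of 32851 windows (1.74%), in 1 of 4 rule genes (Rgs21), in 7 of the 30 Tas2r windows (23.3%) and in none of the 6 windows of shared tuft genes. Of the 7 Tas2r genes, 6 are among the 9 on chromosome 6 that lie outside the large distal cluster, and 1, Tas2r107, is among 19 searched in that cluster. The Tas2r genes are paralogs and share sequence, so their windows are not independent, and a match does not show a bound site. The windows of Rgs21 (chr1:144567618-144567917, minus strand), Tas2r118 (chr6:23970011-23970310, minus), Tas2r137 (chr6:40490988-40491287, plus), Tas2r108 (chr6:40493342-40493641, plus) and Tas2r107 (chr6:131660100-131660399, minus) are shown and hold the octamer. These genes had a UMI in more members than Tas2r144, Tas2r135 and Tas2r126, whose windows hold it too and are not shown. The window of the rule gene Tas2r105 (chr6:131687414-131687713, minus) is shown beside them and has no match. For Tas2r118, Tas2r137, Tas2r108 and Tas2r105 the annotated start is the ATG start codon, so the window is measured from the codon and not from a known transcription start. Each is 5′ to 3′ on the gene's strand, with the octamer or its reverse complement in capitals.
Rgs21: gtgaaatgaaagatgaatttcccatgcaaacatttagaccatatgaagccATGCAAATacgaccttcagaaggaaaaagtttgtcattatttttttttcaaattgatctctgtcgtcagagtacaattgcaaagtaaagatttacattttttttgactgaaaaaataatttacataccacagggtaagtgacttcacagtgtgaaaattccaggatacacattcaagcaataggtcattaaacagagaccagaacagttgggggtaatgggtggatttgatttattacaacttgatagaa
Tas2r118: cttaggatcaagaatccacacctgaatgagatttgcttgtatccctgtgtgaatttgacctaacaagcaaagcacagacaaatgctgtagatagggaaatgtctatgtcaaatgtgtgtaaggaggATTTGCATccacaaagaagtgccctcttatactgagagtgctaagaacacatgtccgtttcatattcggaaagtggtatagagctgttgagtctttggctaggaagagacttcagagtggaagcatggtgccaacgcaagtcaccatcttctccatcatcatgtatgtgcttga
Tas2r137: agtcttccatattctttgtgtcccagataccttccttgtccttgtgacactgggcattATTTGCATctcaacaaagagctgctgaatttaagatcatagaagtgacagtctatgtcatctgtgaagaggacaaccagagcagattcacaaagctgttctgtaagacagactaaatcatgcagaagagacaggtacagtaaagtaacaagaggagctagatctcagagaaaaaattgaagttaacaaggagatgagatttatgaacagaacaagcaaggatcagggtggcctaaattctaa
Tas2r108: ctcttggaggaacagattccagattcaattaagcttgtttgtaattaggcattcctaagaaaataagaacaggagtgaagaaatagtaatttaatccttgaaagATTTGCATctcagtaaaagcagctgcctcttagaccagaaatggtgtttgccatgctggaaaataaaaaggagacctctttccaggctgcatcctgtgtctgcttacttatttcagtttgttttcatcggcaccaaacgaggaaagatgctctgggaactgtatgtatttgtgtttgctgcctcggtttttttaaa
Tas2r107: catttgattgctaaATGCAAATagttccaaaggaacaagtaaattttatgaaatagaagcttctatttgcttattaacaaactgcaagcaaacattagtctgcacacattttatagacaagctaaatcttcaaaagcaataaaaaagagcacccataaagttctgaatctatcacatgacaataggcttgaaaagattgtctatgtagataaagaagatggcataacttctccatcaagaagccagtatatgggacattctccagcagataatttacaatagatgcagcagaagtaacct
Tas2r105: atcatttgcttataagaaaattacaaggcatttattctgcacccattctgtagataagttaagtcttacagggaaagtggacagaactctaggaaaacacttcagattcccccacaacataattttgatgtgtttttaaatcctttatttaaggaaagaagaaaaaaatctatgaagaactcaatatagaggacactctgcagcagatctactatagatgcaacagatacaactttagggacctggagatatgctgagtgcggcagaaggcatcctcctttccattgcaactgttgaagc

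The octamer begins 200 bases before the annotated start of Rgs21, 124 before that of Tas2r118, 192 before that of Tas2r137, 146 before that of Tas2r108 and 236 before that of Tas2r107. The 6 octamer-holding genes outside the distal cluster had a UMI in 0 to 17.7% of members of the library labelled KO (median 6.74%) and in 0.358% to 17.9% of members of the library labelled WT (median 5.02%). Tas2r144, Tas2r135 and Tas2r126 hold the octamer too, and had a UMI in at most 1.43% of members each. The 3 genes in the same part of the chromosome without the octamer had a UMI in 0 to 5.67% (median 0) and 0 to 8.96% of members (median 0.358%). In the distal cluster, the 18 searched genes without it, beside Tas2r105, spanned 0 to 16.3% and 0 to 19.0%, and Tas2r105 itself, also without it, was in 26.2% and 23.7%.

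Foxp1, the forkhead factor named by the labels, was counted over the whole gene and was higher where the label says KO. Members held 644 CPM (counts per 1000000 UMIs of the class) of Foxp1 in the library labelled KO (95% Poisson interval 604 to 686) and 380 CPM in the library labelled WT (359 to 402), which is a log2 ratio of 0.76 (0.64 to 0.88). Other tuft-like cells gave 541 and 365 CPM, and all remaining cells 369 and 228 CPM. The order of the libraries was the same in all 3 classes, and Foxp1 UMIs were present in 87.9% and 83.9% of members. Reads outside a deleted exon would still count, and Foxp1 overlaps 4 annotated genes on its own strand, so the whole-gene count is no measure of the deletion. Every direction between libraries below rests on the titles alone.

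Members carried the tuft identity that the label gives them. Of 7 genes shared by tuft cells (Avil, Trpm5, Sh2d6, Pou2f3, Lrmp, Sh2d7 and Dclk1), 3 or more had a UMI in 127 of 141 members of the library labelled KO (90.1%, Clopper-Pearson interval 83.9% to 94.5%) and in 268 of 279 of the library labelled WT (96.1%, 93.1% to 98.0%). All 7 were present in 50 (35.5%) and 140 (50.2%) members. Trpm5 was at 359 and 408 CPM, Avil, an actin-binding protein, at 605 and 722 CPM, and Pou2f3 at 229 and 266 CPM. The comparison group of other tuft-like cells, kept cells with 3 or more of these 7 genes that are no members, holds 199 and 361 cells. These 7 genes chose that group but not the members, so their levels in it are partly built in. Members were deeper, with medians of 8779 and 9601 UMIs per cell, against 5234 and 5242 in the other tuft-like cells and 4945 and 6087 in the rest. A cell with more UMIs meets the rule more easily.

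The values that chose the members are given as a description. Gnat3 was at 1366 CPM in members of the library labelled KO and at 977 CPM in those labelled WT, against 33.1 and 89.6 CPM in other tuft-like cells and 1.54 and 1.07 CPM in the rest. Gnb3 was at 760 and 613 CPM in members, 135 and 139 CPM in other tuft-like cells, and 3.93 and 6.10 CPM in the rest. Ovol3 was at 307 and 165 CPM in members and at 8.92 and 7.98 CPM in other tuft-like cells. Rgs21 and Tas2r105 were the sharpest. Rgs21 was at 280 and 278 CPM in members, and had 0 UMIs in the 199 other tuft-like cells labelled KO, at least 146-fold lower than in members by the limit of 3 UMIs over the class, and 2.90 CPM in those labelled WT. Tas2r105 was at 92.6 and 66.6 CPM in members and at 0 in the other tuft-like cells of both libraries, at least 48.4-fold and 61.2-fold lower. The plot of rule genes and shared tuft genes shows these steps beside the flatter tuft genes, which chose the other tuft-like cells.

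**Figure D1:**
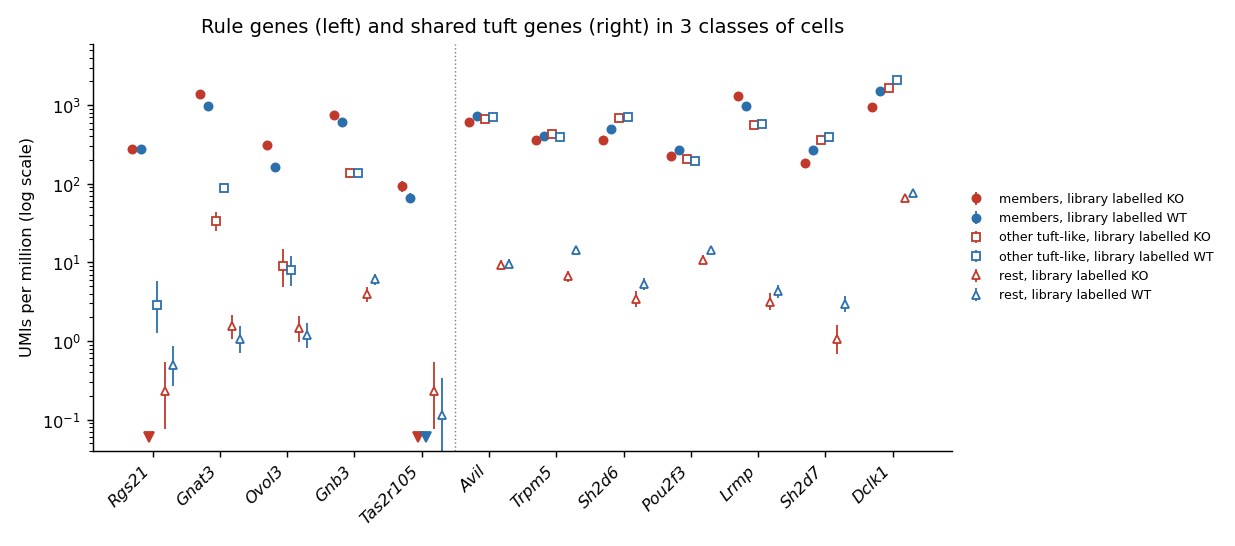
CPM (log scale) of the 5 rule genes (left of the dotted line) and the 7 shared tuft genes (right) in members (filled circles), other tuft-like cells (open squares) and the rest (open triangles), in the library labelled KO (red) and the library labelled WT (blue). Bars are 95% Poisson intervals and triangles pointing down mark a class with 0 UMIs. The rule genes, which chose the members, step down from members to other tuft-like cells in both libraries. Trpm5, Avil and Pou2f3 stay close in both classes. They are among the 7 genes that chose the other tuft-like cells, so the contrast is partly built in.

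Most members were found through Gnb3 and Gnat3. Gnb3 had a UMI in 131 of 141 (92.9%) and 266 of 279 members (95.3%), Gnat3 in 81.6% and 81.0%, Ovol3 in 54.6% and 46.6%, Rgs21 in 39.7% and 43.4%, and Tas2r105 in 26.2% and 23.7%. The pair Gnat3 and Gnb3 was present in 105 and 214 members, and Rgs21 with Tas2r105 in 26 and 44. Cells that should lack these genes had few UMIs. Among cells with 3 or more of 6 endothelial markers and no Epcam UMI (135 and 49 cells, medians of 2539 and 3291 UMIs), Gnat3 had a UMI in 2.22% and in 0 of 49 cells, and Gnb3 in 0 of 135 and in 2.04%. Rgs21, Ovol3 and Tas2r105 had none, which allows shares of up to 2.22% and 6.12% by the limit of 3 cells for a count of 0. Among kept cells without a UMI of any shared tuft gene, at medians of 4418 and 5564 UMIs, Gnb3 reached 2.26% and 3.48% and Rgs21 0.0923% and 0.348%.

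The border of the rule falls between 1 and 2 rule genes. Just outside it, 219 and 362 kept cells had 1 rule gene, with medians of 8134 and 7329 UMIs, and 44.3% and 50.8% of them had 3 or more shared tuft genes. Just inside it, 67 and 133 members had exactly 2 rule genes, with medians of 7684 and 8505 UMIs, and 88.1% and 93.2% of them had 3 or more shared tuft genes. Members with 3, 4 and 5 rule genes numbered 34, 20 and 20 in the library labelled KO and 75, 37 and 34 in the library labelled WT. The median number of rule gene UMIs per cell was 5 and 6 in members with 2 rule genes and 89 and 62 in those with all 5, so the 5-gene members were far from the border.

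Members held UMIs of bitter receptors beside the 1 used by the rule, though not every member did. Of 35 Tas2r genes in the files, 32 had a UMI in members of either library, and 26 in members of both. The 34 genes beside Tas2r105 gave 338 and 845 UMIs in members, 63 and 148 in other tuft-like cells, and 13 and 20 in the rest, which holds 3244 and 3397 cells. At least 1 of the 34 had a UMI in 78 of 141 members labelled KO (55.3%, 46.7% to 63.7%) and in 159 of 279 labelled WT (57.0%, 51.0% to 62.9%). The shares were 23.1% (17.4% to 29.6%) and 23.5% (19.3% to 28.3%) in other tuft-like cells, and 0.401% and 0.559% in the rest. With each cell thinned to 2000 UMIs they were 31.7% (24.0% to 40.1%) and 33.6% (28.0% to 39.6%) in members and 13.0% (8.54% to 18.8%) and 13.4% (9.97% to 17.6%) in other tuft-like cells, leaving out 2 and 11 members and 15 and 26 other tuft-like cells that were shallower. The 2 libraries lay close to each other. Tas2r105 is itself a rule gene, so the members were chosen on a gene of this family and a higher share in members is partly built in. Among the 74 and 136 members without a UMI of Rgs21 or Tas2r105, the shares were 35.1% (24.4% to 47.1%) and 37.5% (29.4% to 46.2%), against 23.1% and 23.5% in other tuft-like cells. After thinning they were 16.7% (8.92% to 27.3%) and 19.2% (12.8% to 27.1%), and these intervals overlap those of the other tuft-like cells. Without thinning, at least 2 of the 34 genes had a UMI in 50 of 141 and 96 of 279 members. They did in 7 of the 74 and 21 of the 136 members without Rgs21 and Tas2r105, and in 10 of 199 and 29 of 361 other tuft-like cells.

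Single receptors differed in how far they were limited to members. Tas2r117 had a UMI in 17.7% and 19.7% of members and in 6.03% and 5.54% of other tuft-like cells. Tas2r108 was in 17.7% and 17.9% of members and in 6.53% and 9.70% of other tuft-like cells, so it reached furthest into the other tuft-like cells. Tas2r113 was in 16.3% and 19.0% of members, and in 0 of 199 and 4.16% of other tuft-like cells. Tas2r137 was in 12.1% and 13.98% of members and in 4.02% and 6.93% of other tuft-like cells, while Tas2r123 was in 2.13% and 6.81% of members and in 4.02% and 3.32%, higher outside members in the library labelled KO. Tas2r109, Tas2r118 and Tas2r107 were rare outside members. Tas2r109 was in 7.80% and 13.98% of members, against 0.503% and 0 of 361. Tas2r118 was in 12.1% and 8.60% of members, against 0.503% and 0.277%. Tas2r107 was in 4.96% and 9.68% of members and had no UMI in other tuft-like cells. In all, 25 of the 35 genes had a higher share in members than in other tuft-like cells in both libraries, and Tas2r114, Tas2r122 and Tas2r139 had no UMI in members. The 25 include the rule gene Tas2r105, and the shares were not matched for depth. Median depth was 8779 and 9601 UMIs in members and 5234 and 5242 in other tuft-like cells, and a deeper cell shows any gene more easily. The same count over all genes was not made. The plot of each Tas2r gene orders them by their share of members. UMI counts are not divided by transcript length, so the order is of detection, not of RNA level per length.

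**Figure D2:**
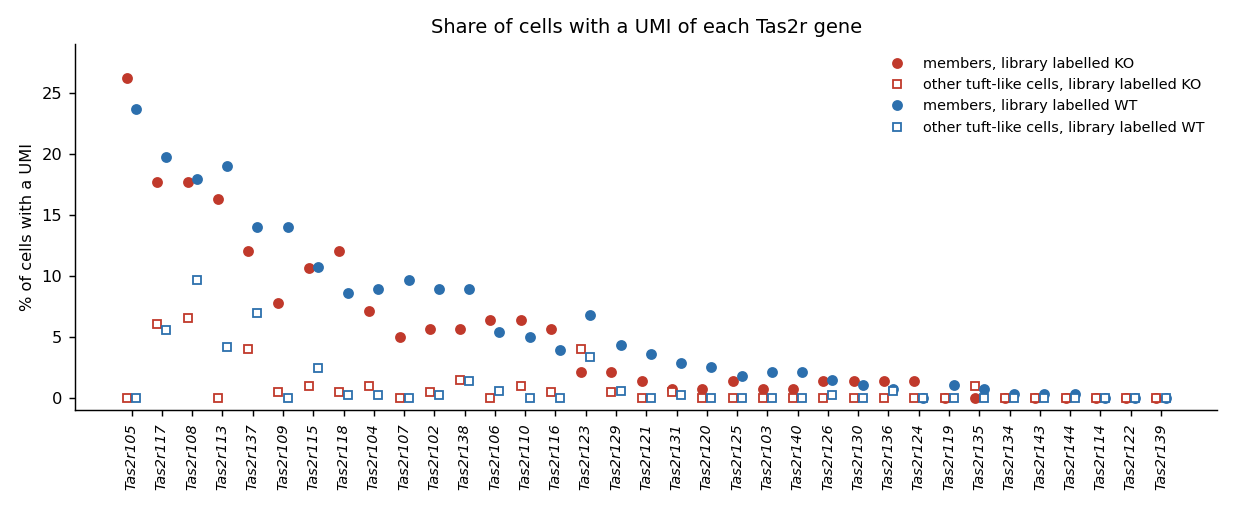
Percent of cells with a UMI of each of the 35 Tas2r genes, in members (filled circles) and other tuft-like cells (open squares) of the library labelled KO (red) and the library labelled WT (blue), ordered by the sum of the members' shares. Tas2r105, a rule gene, leads at 26.2% and 23.7% and is at 0 in other tuft-like cells, while Tas2r117 and Tas2r108 are also present in those cells.

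The Tas2r genes lie on chromosome 6 except for 2, Tas2r134 on chromosome 2 and Tas2r119 on chromosome 15. Of the 33 on chromosome 6, 24 form the distal cluster (chr6:131629823-133055816), of which 22 had a UMI in members. A630073D07Rik, a protein-coding gene annotated at chr6:132625111-132651526 inside that cluster, was among the 20 genes most raised in members over other tuft-like cells, at 267 and 248 CPM against 56.7 and 47.5 CPM. Of the sweet and umami receptors, Tas1r3, the subunit common to both, was at 30.0 and 28.4 CPM in members and at 24.9 and 21.8 CPM in other tuft-like cells, close in both classes. Tas1r1, the umami subunit, was at 25.2 and 29.4 CPM against 5.10 and 6.53 CPM, and Tas1r2, the sweet subunit, had 3 and 1 UMIs in members. Tas1r1 was not limited to tuft-like cells. It had a UMI in 22.0% and 19.0% of members and in 0.863% and 1.53% of the rest, where 28 and 52 cells held 138 and 368 UMIs.

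Members with 4 or 5 rule genes had more receptors per cell on average than those with 2 or 3. Tas2r105, a receptor of the same family, is a rule gene that all members with 5 hold, so part of this is built in. In the library labelled WT, members with 2, 3, 4 and 5 rule genes had on average 0.549, 1.20, 3.43 and 6.82 Tas2r genes beside Tas2r105, and other tuft-like cells 0.366. In the library labelled KO the means were 0.687, 0.529, 2.45 and 5.05, and 0.291 in other tuft-like cells, so the step from 2 to 3 rule genes was not upward there. All members with 5 rule genes had at least 1 such receptor, 20 of 20 and 34 of 34, and the highest number in a single cell was 12 and 17. Thinned to 2000 UMIs, the shares with a receptor at 2, 3, 4 and 5 rule genes were 26.2%, 0%, 60.0% and 75.0% in the library labelled KO and 17.5%, 31.0%, 51.4% and 79.4% in the library labelled WT. The 0% rests on 34 cells, which allow a share of up to 8.82% by the same limit of 3 cells. Median depth rose with the rule genes in the library labelled KO, from 7684 UMIs at 2 to 11325 at 5, but not throughout in the library labelled WT, with 8505, 10325, 11351 and 9262.5 UMIs.

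**Figure D3:**
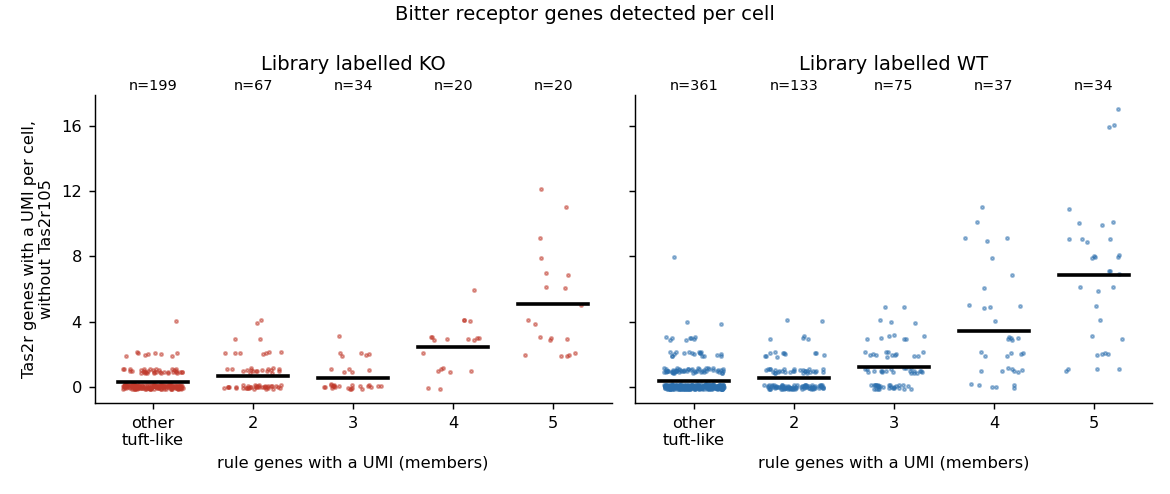
Number of Tas2r genes with a UMI in each cell, without Tas2r105, in other tuft-like cells and in members with 2 to 5 rule genes, for the library labelled KO (left) and the library labelled WT (right). Each point is a cell, moved slightly to avoid overlap, black lines are means and n is the number of cells. Means rise to 5.05 and 6.82 in members with 5 rule genes, and single cells reach 12 and 17.

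Downstream of the receptors, members and other tuft-like cells shared the cascade, and Gng13, Plcb2 and Itpr3 were higher in members. Gng13, the gamma subunit that partners gustducin, was at 1534 and 1216 CPM in members and at 595 and 624 CPM in other tuft-like cells, a log2 ratio of 1.37 (1.26 to 1.48) in the library labelled KO and 0.96 (0.88 to 1.04) in the library labelled WT. Plcb2 was at 315 and 296 CPM against 198 and 204 CPM, and Itpr3 at 64.0 and 51.6 CPM against 30.0 and 30.5 CPM. Trpm5, the channel at the end of the cascade, gave log2 ratios of -0.24 (-0.41 to -0.08) and 0.04 (-0.08 to 0.16), so it did not follow Gng13. The G protein genes Gnb1 (0.11 and -0.01) and Gnai2 (0.13 and 0.11) were close in both classes. Across 12556 genes with at least 50 UMIs over both classes and libraries, 175 (1.39%) were at least 2-fold higher in members in both libraries and 133 (1.06%) at least 2-fold lower. Of 13 compared genes of the taste transduction list, 1 (Tas1r1) was past 2-fold higher in both libraries and none past 2-fold lower, with list medians of 0.36 and 0.54 beside all-gene medians of -0.03 and 0.00. Of 11 compared Tas2r genes beside Tas2r105, 9 were past 2-fold higher in both libraries, and the 5 rule genes are among the 175 by construction.

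Transcription factors and effectors of tuft cells split. Pou2f3 gave log2 ratios of members over other tuft-like cells of 0.13 (-0.09 to 0.35) and 0.46 (0.30 to 0.61), and 1810046K07Rik, which encodes a coactivator of Pou2f3, 0.78 (0.57 to 0.99) and 0.94 (0.77 to 1.10). Pou2f3 is among the shared tuft genes that chose the other tuft-like cells, so its ratio is partly set by that choice. Spib and Elf3, both ETS factors, were lower in members, at -0.56 and -0.31 for Spib and -0.76 and -0.71 for Elf3. None of the 12 compared transcription factors of tuft cells was past 2-fold in both libraries. Among effectors, Il25, the cytokine by which tuft cells reach type 2 lymphocytes, was at 106 and 89.7 CPM in members and 82.9 and 70.4 CPM in other tuft-like cells. Chat, the enzyme of acetylcholine synthesis, was at 90.5 and 70.3 CPM against 84.1 and 86.4 CPM. Tslp, another epithelial cytokine, was lower in members, at 7.49 and 7.19 CPM against 24.2 and 22.9 CPM (log2 ratios -1.69 and -1.67), and was the 1 gene of 13 compared effectors past 2-fold in both libraries.

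Genes of the immune-type and the neuronal-type tuft programmes, 2 subsets described in the gut, are given by their counts beside those of all genes. Over the 12556 genes, 31.4% were lower in members in both libraries and 29.5% higher in both. Of 19 compared immune-type genes, 12 were lower in members in both libraries and 4 higher, none past 2-fold in both, with medians of -0.54 and -0.19. Ptprc, which encodes the leukocyte antigen CD45 and is also made by immune-type tuft cells, was at 18.4 and 34.7 CPM in members and at 47.8 and 60.2 CPM in other tuft-like cells. Of 9 compared neuronal-type genes, 8 were higher in members in both libraries, 1 past 2-fold, with medians of 0.58 and 0.47. That gene, Nrep, was at 372 and 283 CPM against 96.9 and 82.4 CPM. Gng13 stands in this list and in the taste list, and Nradd, another neuronal-type gene, was at 29.3 and 29.7 CPM against 15.3 and 19.2 CPM.

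The genes most raised in members outside the rule and the receptors included channels, guidance molecules and a keratin. Scn2a, the alpha subunit of a neuronal sodium channel, was at 76.2 and 89.1 CPM in members and at 1.27 and 1.09 CPM in other tuft-like cells, from 2 and 3 UMIs there, with log2 ratios of 5.90 (4.02 to 8.97) and 6.35 (4.79 to 8.64). Sgcz, which encodes zeta-sarcoglycan, was at 1680 and 1696 CPM against 167 and 267 CPM. Slit2, a secreted axon guidance protein, was at 890 and 1136 CPM against 208 and 195 CPM, and overlaps other annotated genes on its own strand, as does Sgcz. Krt19 was at 406 and 351 CPM against 90.5 and 75.5 CPM, and was the 1 of 11 epithelial genes past 2-fold. Krt8 was close in both classes, at log2 ratios of -0.01 and -0.08. Further down the ranking stood Hs6st2, a heparan sulfate sulfotransferase (log2 ratios 2.88 and 2.46), Kcnh7, a potassium channel (2.08 and 2.05), Crym, which encodes mu-crystallin (2.72 and 3.20), Mei4, known from meiotic recombination (2.38 and 2.67), and Cdkn1c, a cyclin-dependent kinase inhibitor (2.14 and 2.35). Without the members that have under 3 shared tuft genes, Cdkn1c gave 1.35 (1.16 to 1.54) and 2.40 (2.18 to 2.62). The noncoding genes Gm20125, Gm12153, Gm49504 and Gm26797 complete the 20 with A630073D07Rik, Tas2r118 and the rule genes. Where only cells of 5000 to 15000 UMIs were taken (73 and 157 members, 77 and 147 other tuft-like cells), Krt19 gave 1.79 and 2.28, Slit2 1.99 and 3.05 and Cdkn1c 1.76 and 1.88.

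The genes most lowered in members came from few other tuft-like cells. Reg1, a secreted lectin of the gut and pancreas, had 0 UMIs in members labelled KO, at least 38.4-fold lower, and 2.50 CPM in those labelled WT, against 78.4 and 39.9 CPM in other tuft-like cells, where 4 cells in each library held its UMIs. Ins2, an insulin gene, was at 0.681 and 8.13 CPM against 17.2 and 106 CPM, from 8 and 13 other tuft-like cells. Gatm, an enzyme of creatine synthesis, was at 2.04 and 8.75 CPM against 52.3 and 92.2 CPM, but gave log2 ratios of -0.11 and 0.34 in cells of 5000 to 15000 UMIs. Reg3a, Reg3b, Krt71, Ssc4d, Spink7, Apoc4 and Ccnb1 completed this end of the ranking. In the same window of depth Ssc4d turned to 1.89 in the library labelled KO and Ccnb1, which had no UMI there in that library, gave -0.25 in the library labelled WT.

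Levels of several genes moved stepwise with the number of rule genes. In the library labelled WT, Scn2a was at 1.09 CPM in other tuft-like cells and at 4.26, 32.8, 212 and 351 CPM in members with 2, 3, 4 and 5 rule genes. In the library labelled KO it was at 1.27, 16.2, 16.3, 179 and 216 CPM. Krt19 rose from 202 to 743 CPM between 2 and 5 rule genes in the library labelled WT and from 123 to 1036 CPM in the library labelled KO. Dclk1, a kinase used as a tuft marker in the gut, ran the other way, from 2080 CPM in other tuft-like cells to 880 CPM at 5 rule genes in the library labelled WT, and from 1634 to 451 CPM in the library labelled KO. Sh2d6, an SH2-domain adaptor, ran from 702 to 315 CPM and from 695 to 123 CPM over the same range. Trpm5 showed no such order, with 397, 424, 377, 374 and 459 CPM in the library labelled WT.

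**Figure D4:**
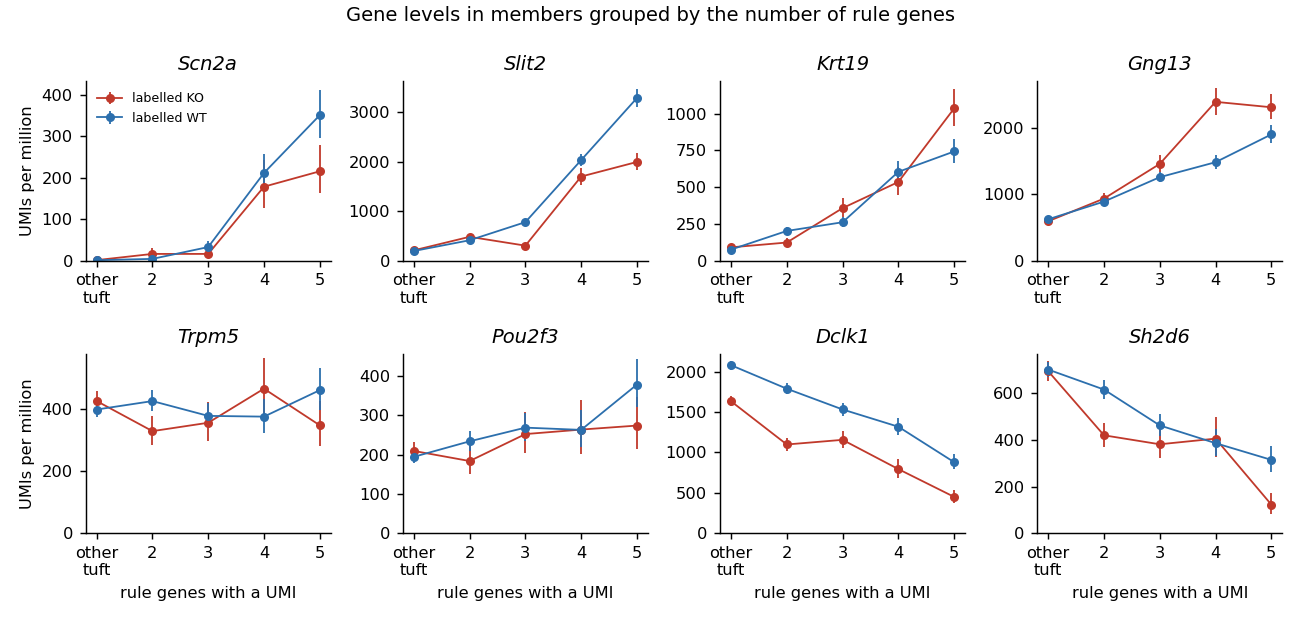
CPM of 8 genes in other tuft-like cells and in members with 2, 3, 4 and 5 rule genes, in the library labelled KO (red) and the library labelled WT (blue), with 95% Poisson intervals. Scn2a, Slit2, Krt19 and Gng13 are highest at 4 or 5 rule genes, Dclk1 and Sh2d6 are lowest at 5, and Trpm5 shows no order. Trpm5, Pou2f3, Dclk1 and Sh2d6 are among the genes that chose the other tuft-like cells, so their levels there are partly built in.

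Members were not uniform, and 3 groups, chosen after seeing the data, describe them by which rule genes they carry. Members with a UMI of Rgs21 or Tas2r105 numbered 67 (47.5%) and 143 (51.3%), and held Gnat3 at 2237 and 1456 CPM, Slit2 at 1486 and 1788 CPM and Scn2a at 135 and 157 CPM. Members with Ovol3 but neither of those numbered 35 and 51, and held Slit2 at 181 and 307 CPM, Gnat3 at 539 and 323 CPM, and Cdkn1c at 2822 and 876 CPM, against 325 and 342 CPM in the first group. Of these 35 and 51 cells, 11 and 5 had under 3 shared tuft genes, and without them Cdkn1c was at 1756 and 905 CPM, Slit2 at 264 and 316 CPM and Gnat3 at 765 and 323 CPM. The remaining 39 and 85 members held Dclk1 at 1601 and 2129 CPM and Sh2d6 at 613 and 745 CPM, the highest of the 3 groups in both libraries. Median depths were 9218 and 10253, 10625 and 10286, and 7735 and 8057 UMIs in the 3 groups in turn.

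Some members had little of the tuft programme. Under 3 of the shared tuft genes were found in 14 members labelled KO and 11 labelled WT, with medians of 12091 and 9010 UMIs, and 12 and 5 of these had an Ovol3 UMI. In the library labelled KO some of these 14 cells held skeletal muscle genes, with UMIs of Myog in 6, of Acta1 in 5 and of Ckm in 3. Myog, the muscle regulator myogenin, was at 1425 CPM against 86.6 CPM in members with 3 or more tuft genes, Acta1, skeletal actin, at 554 against 3.83 CPM, Ckm, muscle creatine kinase, at 268 against 13.8 CPM, and Cdkn1c at 4056 against 537 CPM. Between libraries Cdkn1c gave a log2 ratio of 1.32 (1.21 to 1.43) over all members and 0.48 without these cells. Of the 14, 4 had a UMI in 5 or more of 17 muscle genes, a list made after seeing the data. In the library labelled WT none of the 11 did, and Myog was at 28.9 CPM in them. H2-Aa, an MHC class II chain, was higher in members under 3 shared tuft genes than in the other members of both libraries. It was at 1955 against 743 CPM in the library labelled KO and at 4635 against 1407 CPM in that labelled WT. Values without these cells stand beside some of the results that they move.

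Members made up a smaller share of the kept cells in the library labelled KO, as did the other tuft-like cells. The share was 3.93% (3.32% to 4.62%) in the library labelled KO and 6.91% (6.15% to 7.74%) in the library labelled WT, giving a log2 ratio of -0.81 (-1.12 to -0.52). Other tuft-like cells made up 5.55% (4.83% to 6.35%) and 8.94% (8.08% to 9.86%), a log2 ratio of -0.69 (-0.94 to -0.43). Among members and other tuft-like cells together, members were 41.5% (36.2% to 46.9%) and 43.6% (39.7% to 47.5%), a log2 ratio of -0.07 (-0.37 to 0.23), and this interval includes 0. Members with 4 or 5 rule genes were 28.4% (21.1% to 36.6%) and 25.4% (20.4% to 31.0%) of all members. Thinned to 2000 UMIs before the rule was applied, members were 89 of 3033 cells (2.93%) and 148 of 3596 (4.12%), a log2 ratio of -0.49 (-0.88 to -0.10). With 1 sort and 1 library per label, genotype, animal, dissection, sort and capture cannot be told apart, and these shares carry no test.

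Within members, MHC class II genes and several medullary regulators were lower in the library labelled KO, while genes of the taste cascade and its receptors lay on both sides of 0. Over 10239 genes with at least 50 UMIs in members of both libraries together, 205 (2.0%) were at least 2-fold higher in the library labelled KO and 400 (3.91%) at least 2-fold lower, with a median log2 ratio of -0.01. Over the 9610 genes with a UMI in at least 10% of members, a filter chosen after seeing the data, 105 (1.09%) were higher and 199 (2.07%) lower. Gnat3 gave a log2 ratio of 0.48 (0.40 to 0.56), Gnb3 0.31 (0.20 to 0.42), Ovol3 0.90 (0.71 to 1.08), Tas2r105 0.48 (0.15 to 0.79) and Rgs21 0.01 (-0.16 to 0.18). Since these 5 chose the members, their ratios are a description. Of the 11 compared taste transduction genes 7 were above 0 and 4 below, none past 2-fold in either direction (median 0.09), with Gng13 at 0.34 (0.26 to 0.41), Plcb2 at 0.09 (-0.08 to 0.25) and Trpm5 at -0.19 (-0.33 to -0.04). Of 10 compared Tas2r genes beside Tas2r105, 4 were above 0 and 6 below, 2 of them with the whole interval below. Among them 1, Tas2r107, was past 2-fold lower in the library labelled KO (7 and 43 UMIs, -1.50, -2.89 to -0.33) and none higher (median -0.10).

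All 11 MHC class II genes compared were lower in members of the library labelled KO, 2 of them past 2-fold, with a median of -0.72. Cd74, the invariant chain, was at 2768 and 4220 CPM (-0.61, -0.66 to -0.56), H2-Aa at 878 and 1512 CPM (-0.78, -0.87 to -0.69), Ciita, the transactivator of the class, at 31.3 and 62.8 CPM (-1.0, -1.50 to -0.54) and H2-Ob at 12.3 and 26.9 CPM (-1.13, -1.95 to -0.39). In other tuft-like cells the summed level of the 11 was 10210 and 10303 CPM, in the rest 18740 and 21560 CPM, and in members 6168 and 9701 CPM, so the gap between libraries was widest in members. The difference of these gaps was not tested. Without the members that have under 3 shared tuft genes, H2-Aa gave -0.92 and Cd74 -0.74, while Ciita gave -0.93 and was no longer past 2-fold. In members of 5000 to 15000 UMIs H2-Aa gave -0.77 and Cd74 -0.55, while Ciita gave -1.77 and H2-Ob -3.43. H2-Ob had 18 and 86 UMIs over all members, and the window holds only part of the members, so its value rests on few counts.

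Of 15 compared regulators of medullary epithelium, 5 were past 2-fold lower in the library labelled KO and none higher, with a median of -0.39. Aire, which drives expression of tissue-restricted genes, was at 62.6 and 170 CPM in members (-1.44, -1.77 to -1.12), with UMIs in 27 of 141 and 95 of 279 members. In other tuft-like cells Aire was at 204 and 217 CPM and in the rest at 393 and 483 CPM. Foxn1, the master regulator of thymic epithelium, was at 10.9 and 46.3 CPM (-2.09, -2.93 to -1.34), and Irf4 at 4.77 and 24.1 CPM (-2.34, -3.70 to -1.22), from 7 and 77 UMIs. Cd80, a costimulatory ligand, was at 23.8 and 57.5 CPM (-1.27, -1.84 to -0.74). Cd40, a receptor for T cell help, was at 20.4 and 43.1 CPM (-1.08, -1.70 to -0.50), and gave -0.81 without the members that have under 3 shared tuft genes. Fezf2, named in the title of the series, was at 95.3 and 148 CPM (-0.63, -0.91 to -0.36), not past 2-fold. Aire ranged from -2.58 to -1.37 over the 8 alternatives that gave a ratio, Foxn1 from -2.21 to -1.37 and Irf4 from -3.50 to -1.93. In other tuft-like cells the sum of all 16 listed regulators was 1590 and 1644 CPM, and in members 1040 and 1390 CPM.

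**Figure D5:**
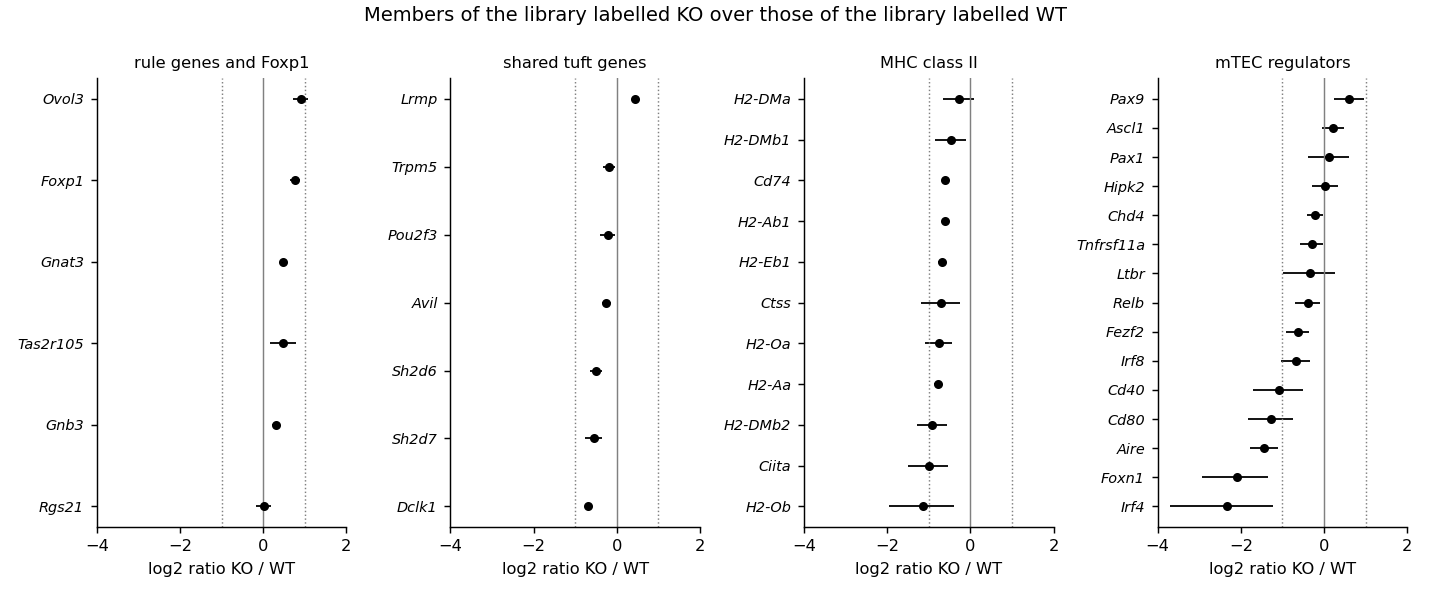
Log2 ratio of members of the library labelled KO over members of the library labelled WT for the rule genes with Foxp1, the shared tuft genes, MHC class II genes and regulators of medullary epithelium, for genes with at least 50 UMIs. Bars are 95% exact conditional binomial intervals for counting error, the solid line marks 0 and the dotted lines a 2-fold difference. All 11 MHC class II genes lie below 0, and Aire, Foxn1, Irf4, Cd80 and Cd40 lie below -1.

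Shared tuft genes moved less. Lrmp, an endoplasmic reticulum protein, was higher in the library labelled KO, at 1325 and 976 CPM (0.44, 0.36 to 0.52), and the other 6 were lower, from -0.19 for Trpm5 to -0.68 (-0.77 to -0.60) for Dclk1, none past 2-fold (median -0.25). Over all 10239 genes 51.7% were below 0. Of 12 compared tuft transcription factors 10 were below 0 (median -0.27), and of 18 compared immune-type genes 12 were below 0 (median -0.20), none past 2-fold in either list. Of 8 compared neuronal-type genes 4 were above 0 and 1, Ninj1, past 2-fold higher, at 72.8 and 29.1 CPM (1.33, 0.91 to 1.74), and 0.94 without the members under 3 shared tuft genes. None of 12 effectors and none of 13 interferon response genes was past 2-fold, with medians of 0.00 and 0.12. Of 14 heat shock and immediate early genes, 2 were past 2-fold lower, the inducible chaperones Hspa1a (142 and 293 CPM) and Hspa1b (184 and 418 CPM). Hspa1a gave -0.96 without the members under 3 shared tuft genes. Hspa1b was also lower in the library labelled KO in other tuft-like cells (240 and 530 CPM) and in the rest (295 and 577 CPM), and the part of tissue handling in this was not tested. Foxp2 and Foxp4, paralogs of Foxp1, gave -0.35 (-1.11 to 0.35) and -0.38 (-0.69 to -0.07).

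Ranked by the interval bound nearest 0 among genes in at least 10% of members, the 10 highest in the library labelled KO were Myog, Ddb2, Mgp, Dnah5, Phldb2, Dpp6, Dcp1a, Hes6, Gas1 and Ly6a. Myog was at 236 and 55.9 CPM (2.08), and at 0.61 without the members under 3 shared tuft genes, and Hes6, a transcription factor of the Hes family, at 295 and 101 CPM (1.55), and at 0.71 without them. Dnah5, an axonemal dynein, was at 197 and 61.9 CPM (1.67, 1.41 to 1.94), with UMIs in 35 and 65 members. Mgp, matrix Gla protein, was at 87.1 and 24.1 CPM (1.86), and Dpp6, a potassium channel accessory protein, at 188 and 60.9 CPM (1.62). For Ddb2 and Dcp1a a single cell held 79.8% and 77.6% of the of their UMIs labelled KO. At the other end stood Kcnip4, Ttll12, Nrg3, Lyz1, Hist1h2ap, Gjb2, Gbp4, 2210407C18Rik, Ccl25 and Slc6a20a. Gbp4, a guanylate-binding protein, was at 6.81 and 34.1 CPM (-2.32, -3.42 to -1.39) with UMIs in 10 and 55 members, and Gjb2, which encodes connexin 26, at 8.17 and 41.9 CPM (-2.36, -3.35 to -1.51) in 9 and 49 members. Kcnip4, a potassium channel interacting protein, was at 4.08 and 63.4 CPM, and 1 cell held 40.9% of its UMIs in the library labelled WT. For Ttll12 that share was 65.5%. In members of 5000 to 15000 UMIs several of these 20 genes shrank or turned, with Ly6a at 0.23, Dcp1a at -0.35, Hist1h2ap at -0.11, Ttll12 at 0.09, Slc6a20a at -0.59 and Ccl25 at 0.65.

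Without that filter the ranking was led by genes whose UMIs sat in few cells. The 10 highest in the library labelled KO were Tmem178, Nppb, Scg2, St8sia2, Acta1, Mybpc1, Trp53cor1, Olfr1369-ps1, Ghrl and Rbp4. Tmem178 had 87 UMIs in 2 members labelled KO and none in those labelled WT, at least 63.2-fold higher. Nppb, a natriuretic peptide, had 65 UMIs of which 84.6% came from 1 cell, and Ghrl, the ghrelin precursor, had 108 UMIs of which 98.1% came from 1 cell. All 58 UMIs of St8sia2 came from 1 cell. The muscle genes Acta1 and Mybpc1 had 72.9% and 70.1% of their UMIs in 1 cell each. Without the members under 3 shared tuft genes, Acta1 gave -0.13, Mybpc1 1.45 and Nppb 4.57. Rbp4 had 97.0% of its UMIs in 1 cell and Trp53cor1 52.9%, and both turned in members of 5000 to 15000 UMIs, to -2.91 and -1.72. Nppb and Olfr1369-ps1 turned in that window too, with no UMI left in the library labelled KO. At the low end stood Mucl2, Klk1b26, Adam2, Il9, Mt4, Gm44995, Bglap, Dcpp2, Fancd2 and Radil. Mucl2 had 2 and 355 UMIs in 2 and 36 members, and Il9, a cytokine, 0 and 134 UMIs in 0 and 6 members, at least 20.5-fold lower in the library labelled KO. All 219 UMIs of Gm44995 in the library labelled WT came from 1 cell.

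Markers of other cells were mostly lower in members than in the rest, which may hold the marked cell types, so this is partly built in. Over 13 marker lists, the summed level was below that of the rest in both libraries for 10, namely myeloid, endothelial, fibroblast, neuroendocrine, ionocyte, microfold, keratinocyte, cortical epithelial (cTEC), Ccl21 and cycling lists. Between libraries, endothelial markers were at 109 and 62.5 CPM in members (219 and 119 CPM in the rest), fibroblast markers at 66.0 and 18.4 CPM (161 and 109 CPM in the rest) and cTEC markers at 214 and 390 CPM (510 and 789 CPM in the rest), each in the same order as in the rest. In other tuft-like cells endothelial markers were at 99.4 and 54.1 CPM and fibroblast markers at 28.7 and 27.6 CPM. Neuroendocrine markers were at 145 and 227 CPM there and at 169 and 134 CPM in members. For these lists members were higher in the library labelled KO, but only for endothelial markers in that labelled WT. The others of the 10 lists were lower in members in both libraries. Ciliated markers were higher than in the rest, at 315 and 112 CPM against 312 and 221 CPM in other tuft-like cells and 81.2 and 71.1 CPM in the rest, of which Dnah5 gave 197 and 61.9 CPM. B cell markers were at 62.6 and 49.4 CPM against 30.4 and 37.3 CPM, of which Cd79b gave 50.4 and 38.8 CPM. Thymocyte markers were at 33.4 and 92.5 CPM against 61.1 and 52.5 CPM, so they were above the rest in the library labelled WT. Of the 10 listed genes 3 and 1 were at 0 in members, Cd8b1 in both libraries. The 2 compared between libraries, Ptcra and Themis, were both lower in the library labelled KO (median -2.03). Without the members under 3 shared tuft genes Ptcra gave -3.28 and Themis -0.54. Ccl21a, a chemokine of another medullary type, was at 1451 and 640 CPM in members and at 2956 and 1837 CPM in the rest, so its order between libraries was the same in both. Its part in the results for members was not tested, and neither was that of doublets, which were not removed. The libraries share 5 cell barcodes, and 1 of these is a member in either.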

How the data were processed

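The deposited files hold UMI counts per gene and cell for 2 libraries, made by the authors with Cell Ranger, whose version 7.0.1 is recorded per the file headers. Seurat and mm10 are named in the submitters' processing notes, and further steps are not given there. Of 4277 barcodes in the library labelled KO and 4957 in the library labelled WT, cells were kept from 500 genes and 1000 UMIs upward when no more than 10% of UMIs were mitochondrial. The median kept cell had 5098 and 6267 UMIs. No doublet caller was run. UMIs were summed over members, other tuft-like cells and the rest, and given as counts per 1000000 UMIs of the class (CPM). Poisson, Clopper-Pearson and conditional binomial intervals (95%) cover counting error only, and no p-value was computed, since each group is 1 library. Genes with at least 50 UMIs were compared, and a log2 ratio of 1 or more, or -1 or less, counts as past 2-fold. For equal depth, each cell was thinned at random to 2000 UMIs. Genes named are those of 27 lists and the receptors, plus, by the interval bound nearest 0, the 10 highest and 10 lowest between libraries, and the 20 highest and 10 lowest against other tuft-like cells. The members and lists were chosen with earlier results of these data known, and the genes in at least 10% of members, the 5000 to 15000 UMI window, the requirement of 3 shared tuft genes, the muscle list and the 3 groups of members were chosen after seeing the data. Of 348 named genes, 50 overlap another gene on their strand in the annotation, and counting could share reads between them. Gene positions are from GENCODE vM21. Scripts were tested on simulated data and used Python 3.11.15, numpy 2.4.6, scipy 1.17.1, pandas 2.3.3 and matplotlib 3.10.9.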

Additional observations from a re-analysis of the deposited data

Results flagged for a closer look

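In 4 genes with a UMI in at least 10% of members, members lay above other tuft-like cells by at least 2-fold in one library and below them by at least 2-fold in the other. Ddb2, a DNA damage binding protein, gave log2 ratios of 2.40 in the library labelled KO and -2.04 in the library labelled WT, with 79.8% of the member UMIs labelled KO in 1 cell. Nrg3, a neuregulin, gave -2.20 and 1.46. Hist1h2ap, a histone gene, gave -1.29 and 2.20, with 45.3% of the member UMIs labelled WT in 1 cell. Ttn, the muscle protein titin, gave 1.24 and -1.05, and 1.02 and -1.08 without the members that have under 3 shared tuft genes. The difference between the libraries was not tested for any of the 4.

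Barcodes below the cell filter also held rule genes. Of 693 failing barcodes in the library labelled KO, 10 had at least 2 rule genes (1.44%), with a median of 2185.5 UMIs and 16.5% mitochondrial UMIs. Of 920 in the library labelled WT, 22 did (2.39%), with medians of 1477 UMIs and 13.8%.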

How the results depend on the processing

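No paired analysis was possible because each group is 1 library. The log2 ratio of the member share ran from -0.91 to -0.62 over the 6 alternative cell filters and member rules, was -0.49 when cells were first thinned to 2000 UMIs, and was -0.072 as a share of all tuft-like cells. Genes past 2-fold between libraries were 505 higher and 901 lower with a minimum of 20 UMIs, 32 and 93 with 200 UMIs, and 105 and 199 over genes in at least 10% of members, and 121 were higher in cells of 5000 to 15000 UMIs. Against other tuft-like cells, 251 were lower in members with at least 3 rule genes, and 71 were higher and 24 lower with a minimum of 200 UMIs. Thinned to 2000 UMIs, 31.7% and 33.6% of members had another Tas2r gene. Of 1851 alternative values over 237 named genes, 1560 stayed in the first interval, 271 moved out of it with the same sign and 20 turned, in 11 genes. With at least 3 rule genes Cenpf gave -1.74 and Rbp4 -2.25. With at least 2 shared tuft genes Cenpf gave -3.02, Actc1 -0.74 and Myl1 -1.87, and with at least 3, Cenpf -2.88, Acta1 -0.13, Actc1 -0.87 and Myl1 -1.77. Without the 5% of cells with the most UMIs, Chgb gave -0.25, Rbp4 -1.93, Dcp1a -0.42 and Mylpf 0.24. In cells of 5000 to 15000 UMIs, Chgb gave -0.33, Ccl25 0.65, Trp53cor1 -1.72, Rbp4 -2.91, Dcp1a -0.35, Ttll12 0.090 and Mylpf 0.92. A further 43 alternatives left 1 library at 0, of which 6 turned (Gm44995 and Olfr1369-ps1 under 2 settings each, Nppb and Cenpf under 1), and 2 left both at 0. The cause of these changes was not tested.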
